A study of Homo sapiens with 2 samples.

Results

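The MiT/TFE transcription factors and the Rag GTPase and folliculin genes that control them were followed in PLC/PRF/5 cells, an established human hepatocellular carcinoma line. These are 10 genes of the 24991 with a symbol of their own in the expression table, chosen by name: TFEB, TFE3, MITF, TFEC, RRAGA, RRAGC, RRAGD, FLCN, FNIP1 and FNIP2. The study compared cells that overexpress NFX1 (a DNA-binding zinc-finger protein) with cells carrying an empty vector. Both cultures were kept under hypoxia in DMEM with serum, and total RNA was sequenced. The labels give 1 library for each group and do not say how NFX1 was introduced or whether the cells came from a clone. With 1 library per group there is no replicate check, so each difference below compares 2 libraries and not the conditions.

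MiT/TFE factors bind short E-box sequences and switch on genes of lysosome formation and autophagy. In fed cells, Rag GTPase pairs (RagA or RagB with RagC or RagD) on the lysosome recruit the kinase mTORC1, which phosphorylates TFEB and TFE3 and thereby keeps them in the cytosol. Folliculin, with its partner FNIP1 or FNIP2, stimulates GTP hydrolysis by RagC and RagD and so brings them to the GDP-bound form that presents TFEB and TFE3 to mTORC1. RRAGD, RRAGC, FLCN and FNIP2 have themselves been reported as MiT/TFE targets in human or mouse cells. RNA levels carry no information on phosphorylation or on location in the nucleus, which were not measured here.

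A core of the E-boxes that these factors recognise is the hexamer CACGTG, which reads the same on both strands. Only this hexamer and 1 longer form of it were searched, and no other sequence that the factors may bind. Of the 10 genes, 8 had at least 1 RefSeq promoter in the table used here, 14 promoters in all. The hexamer was found in the 250 bases before the start site of 2 genes, RRAGC and FNIP1, and these promoters are shown because they hold it. The capitals mark the hexamer, on the gene's strand (minus for both), build GRCh38.p14, RRAGC at chr1:38859773-38860022 and FNIP1 at chr5:131797018-131797267.
RRAGC: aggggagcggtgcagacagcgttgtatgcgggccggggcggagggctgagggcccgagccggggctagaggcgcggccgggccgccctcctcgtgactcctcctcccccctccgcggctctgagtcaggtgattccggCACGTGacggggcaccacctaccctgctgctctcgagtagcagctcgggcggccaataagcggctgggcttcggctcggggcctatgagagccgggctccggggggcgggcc
FNIP1: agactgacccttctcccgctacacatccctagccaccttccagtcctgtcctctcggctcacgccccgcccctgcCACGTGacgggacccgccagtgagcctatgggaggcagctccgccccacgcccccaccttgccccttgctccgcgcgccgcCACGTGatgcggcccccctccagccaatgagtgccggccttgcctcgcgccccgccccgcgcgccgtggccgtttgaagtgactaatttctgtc
The hexamer began 112 bases before the start site of RRAGC, and 175 and 94 bases before that of FNIP1. The hexamer thus occurs in 2 of the 14 promoters, beside 6.34% of the 35116 promoters of that table over the same window. Among those with a GC content of at least 65%, the share is 9.01%. A count of 2 among 14 is no result about these genes. The longer form TCACGTGA was in none of the 14 promoters and in 0.854% of all promoters. The windows of TFEB, TFE3, MITF, TFEC, FLCN and FNIP2 did not hold the hexamer, and RRAGA and RRAGD are named only. The bases after either FNIP2 start site were not found in GENCODE transcripts of FNIP2.

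The NFX1 library had an estimated 29.9 M fragments and the vector library 26.3 M. NFX1 itself had 56.0 FPKM in the NFX1 library and 4.21 FPKM in the vector library, 13.3 times as much. Of the 9 listed markers of hepatocytes and liver tumours, all had FPKM of at least 1 in a library. SERPINA1 had 6807 FPKM in the NFX1 library and 5935 FPKM in the vector library, KRT18 1783 and 1502 FPKM, and KRT8 1418 and 1140 FPKM, whereas ALB had 1.06 and 0.776 FPKM, TTR 1.96 and 1.38 FPKM and AFP 7.73 and 7.48 FPKM. The 5 fibroblast and 4 endothelial markers stayed under 1 FPKM in both libraries, and so did 5 of 7 markers of macrophages and blood cells, with PTPRC and CD3E at 0. The other two, CD68 and LYZ, were expressed. CD68 had 52.6 FPKM in the NFX1 library and 48.9 FPKM in the vector library, and LYZ 47.9 and 49.2 FPKM.

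Among the 4 transcription factors, TFE3 was the main transcript. TFE3 (chromosome X, 48886238 to 48901043, hg19) had 34.7 FPKM in the NFX1 library and 28.8 FPKM in the vector library. It made up 89.7% of the summed FPKM of the family in the NFX1 library and 90.9% in the vector library. TFEB (chromosome 6, 41651716 to 41703997) had 3.14 FPKM in the NFX1 library and 2.19 FPKM in the vector library. The RNA is of whole cultures, so fewer cells with a transcript and less of it per cell cannot be told apart. The share of TFEB in the family was 8.11% in the NFX1 library and 6.92% in the vector library. TFE3 thus stood 11.1 times above TFEB in NFX1 cells and 13.1 times above it in vector cells. MITF (chromosome 3, 69788586 to 70017488), the family member best known from melanocytes, had 0.842 and 0.687 FPKM. TFEC (chromosome 7, 115575202 to 115670867), which is known mainly from macrophages, was listed at 0 in both libraries. The summed level of the family was 38.7 FPKM in the NFX1 library and 31.7 FPKM in the vector library.

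**Figure D1:**
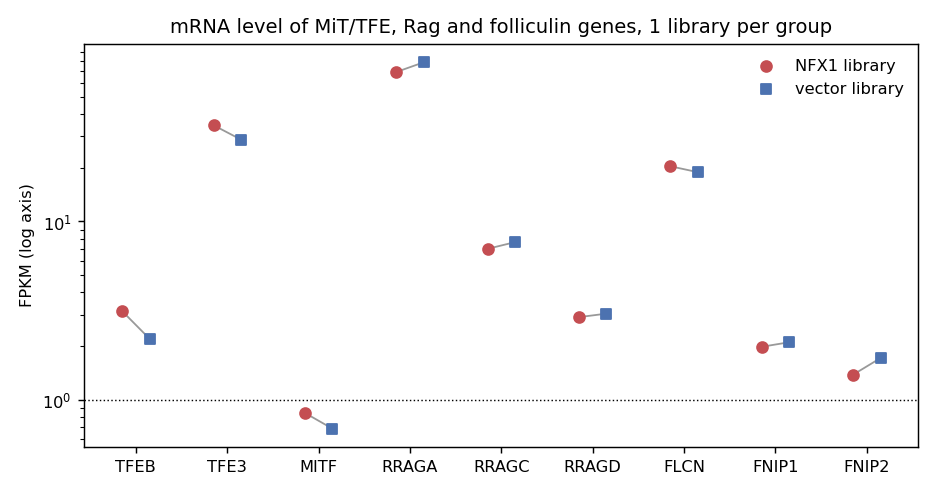
Level of 9 members as FPKM on a log axis, NFX1 library (circles) left of the vector library (squares), 1 library per group, with no error bars because there are no replicates. The dotted line marks the 1 FPKM minimum; TFEC, listed at 0, is not drawn. RRAGA is the highest in both libraries and only MITF lies under the line.

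TFEB had the largest change of the 8 members that reached 1 FPKM. Its fold was 1.43, with an exact 95% counting interval of 1.14 to 1.80 from an estimated 205 fragments in the NFX1 library and 126 in the vector library. On the scale of log2(FPKM + 1), which understates the change of low genes, it was 0.37. TFEB exceeded 22.2% of the measured genes in level in the NFX1 library and 14.3% in the vector library. For TFE3 the fold was 1.20 (counting interval 1.14 to 1.27) and the change 0.26. The fold of MITF was 1.22, with an interval of 0.866 to 1.75 from 81 and 58 fragments, so a difference was not detectable at this depth. All 3 family members above 0 had the higher value in the NFX1 library. In the authors' deposited table TFEB had p = 0.0833, the smallest of the members, and a q-value of 0.999. None of the 9 members tested in the authors' deposited table was marked as significant. Of all its rows 14994 were tested and 18 were marked, so this is no result about the members. These p-values do not measure the spread between cultures.

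Rag GTPase transcripts had slightly lower values in NFX1 cells. RRAGA (chromosome 9, 19049372 to 19051021), which encodes RagA, was the most abundant member, with 69.0 FPKM in the NFX1 library and 78.3 FPKM in the vector library. Its fold was 0.882, with a counting interval of 0.840 to 0.926, and its change was -0.18. The estimated fragments of RRAGA, 3276 in the NFX1 library and 3267 in the vector library, were close. These fragments were calculated from the FPKM and the estimated depths, so they are no separate evidence. If the estimate holds, the fold of RRAGA rests on the difference in depth between the libraries. RRAGC (chromosome 1, 39303869 to 39325495), the more abundant gene of the RagC and RagD pair, had 7.02 and 7.66 FPKM. The fold of RRAGC was 0.917 (interval 0.815 to 1.03), so its difference lay within counting error. A GENCODE transcript named AL139260.2 shares 22.2% of the 50-base words of RRAGC transcripts, and the strand of the library is not given, so reads of the 2 cannot be told apart there. RRAGD (chromosome 6, 90074335 to 90121995), the Rag gene known as a strong MiT/TFE target, had 2.90 and 3.04 FPKM, a fold of 0.956 (interval 0.831 to 1.0996). RRAGD was therefore not detectably different at this depth.

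Within each Rag pair the same gene was the more abundant in both libraries. RRAGC made up 70.7% of the summed RRAGC and RRAGD level in NFX1 cells and 71.6% in vector cells. RRAGB (2.79 FPKM in the NFX1 library and 3.58 FPKM in the vector library), which is no member, encodes RagB, the alternative to RagA. RRAGA stood 24.7 times above RRAGB in NFX1 cells and 21.8 times above it in vector cells. No 50-base word was shared by transcripts of any of the 55 pairs among these 11 genes. An exact match of that length is thus not shared by paralogs, but reads placed with mismatches were not examined. The fold of RRAGB was 0.779 (counting interval 0.620 to 0.972), which puts both genes of the RagA and RagB pair on the lower side in the NFX1 library.

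In the folliculin complex, FLCN had the higher value in the NFX1 library and FNIP1 and FNIP2 had lower ones. FLCN (chromosome 17, 17115527 to 17140502), which encodes folliculin and is mutated in Birt-Hogg-Dubé syndrome, had 20.4 FPKM in the NFX1 library and 18.9 FPKM in the vector library. The fold of FLCN was 1.08, with a counting interval of 0.984 to 1.18 that includes 1. Of its 50-base words, 10.9% also lie in a GENCODE transcript named AC055811.2, and reads there cannot be assigned to 1 of them. FNIP1 (chromosome 5, 130977407 to 131132756) had 1.98 and 2.099 FPKM, a fold of 0.943 (interval 0.801 to 1.12). FNIP2 (chromosome 4, 159690107 to 159956333) was the lowest measured member, with 1.38 FPKM in the NFX1 library and 1.71 FPKM in the vector library. Its fold was 0.807, with an interval of 0.684 to 0.9496, and its locus overlaps that of C4orf45. FLCN stood 6.08 times above the sum of FNIP1 and FNIP2 in NFX1 cells and 4.96 times above it in vector cells. FNIP1 was 1.43 times as high as FNIP2 in NFX1 cells and 1.23 times in vector cells.

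The order of the levels was nearly the same in both libraries: RRAGA, TFE3, FLCN and RRAGC, then RRAGD and TFEB, then FNIP1, FNIP2, MITF and TFEC. The exception was the adjacent pair TFEB and RRAGD, with TFEB the higher in the NFX1 library and RRAGD the higher in the vector library. With no replicates, neighbours in this order could not be set against a spread.

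To describe size, a limit was set at 0.32 on the log2(FPKM + 1) scale, which is a ratio of FPKM + 1 that is 25% above 1 or 20% below it, so the FPKM of low genes must differ by more to pass. Of the 8 measured members, 1 was past this limit on the higher side (TFEB), against 6.12% of all measured genes, and 0 were past it on the lower side, against 2.3%. A count of 1 among 8 genes is no result about the group beside those shares. At limits of 1.5-fold and 2-fold, 0 members were past in either direction, against 0.635% and 0.143% of all measured genes. The median change of the 8 was -0.05, with 3 higher and 5 lower, beside a median of 0.01 over all measured genes, of which 52.0% were higher. With the trend on GC content, length and expression subtracted, as described further on, the median of the members turned to 0.04, with 4 higher and 4 lower. The counting interval left out 1 for 4 members (TFEB, TFE3, RRAGA and FNIP2) and included it for the other 4. The share of all measured genes whose interval leaves out 1 was not computed, so this count is no result about the group. Between cultures the spread is unknown, and counting intervals do not contain it.

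**Figure D2:**
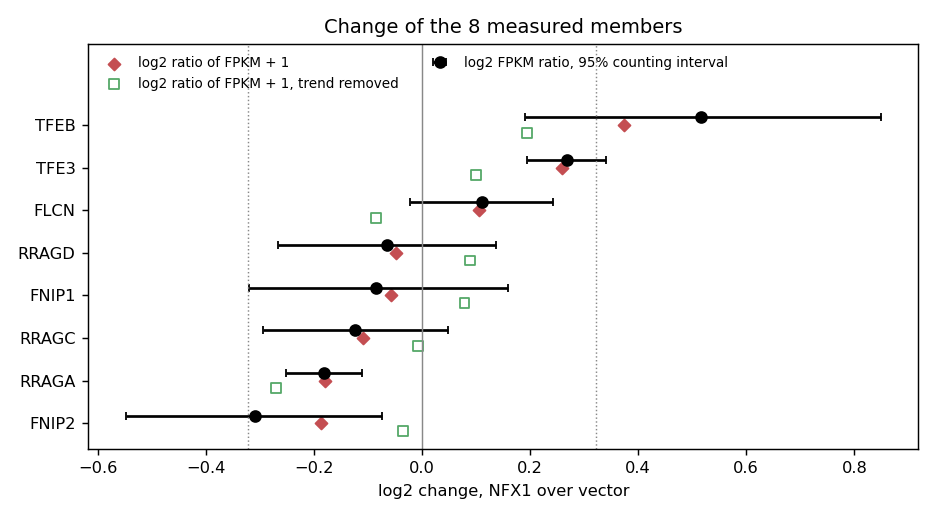
Change of the 8 measured members, NFX1 over vector, on a log2 axis. Circles with bars are the FPKM ratio with its 95% counting interval, diamonds the ratio of FPKM + 1, and open squares that ratio with the trend on GC content, length and expression subtracted; dotted lines mark the limit of 0.32. TFEB is the only diamond past a dotted line, and no open square is.

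The direction of 7 of the 8 measured members was that of the fitted trend with GC content, length and expression, and RRAGA was the exception. The share of all measured genes with the direction of their fit was not computed, so this count is no result about the members. In the quintile of genes with the highest GC content (median 62.6%) the median change over all genes was 0.20, and 90.1% were higher in the NFX1 library. In the quintile with the lowest GC content (median 39.5%) it was -0.11, and 18.3% were higher. The 3 members with higher values all lay in the highest quintile, with GC contents of 63.7% for TFEB, 60.8% for FLCN and 59.8% for TFE3. The 5 with lower values had less GC, from 40.6% for FNIP1 to 52.2% for RRAGA. RRAGA lay in the middle quintile, where 49.8% of genes were higher, and its fitted trend was 0.09, opposite in sign to its change of -0.18.

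Set against genes of like composition, the members took another order. The change of TFEB was above that of 91.4% of its GC quintile, in which 16.8% of genes were past the limit on the higher side, and that of TFE3 above 66.2%. FLCN, though higher in the NFX1 library, lay above only 24.2% of its quintile. RRAGA lay above 13.2% of its quintile and RRAGB above 6.24%, whereas RRAGD and FNIP1 lay above 67.1% and 67.0%. A trend of the change with GC content, length and expression level, which took 38.5% of the variance across genes, was then subtracted. The trend-adjusted change was 0.19 for TFEB and 0.10 for TFE3. It was -0.27 for RRAGA and -0.20 for RRAGB, while RRAGC (-0.01), RRAGD (0.09), FNIP1 (0.08), FNIP2 (-0.03) and FLCN (-0.09) were within 0.1 of 0. No member was then past the limit, and 1.88% of all genes were past it on the higher side and 1.93% on the lower. On the scale used, the largest trend-adjusted change of a member was thus that of RRAGA, a decrease, and not that of TFEB. That scale understates the change of low genes such as TFEB. With only 0.1 added to each FPKM, the change before trend removal was 0.50 for TFEB and -0.18 for RRAGA. The trend was not removed at that setting, so whether RRAGA would still rank above TFEB was not tested.

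**Figure D3:**
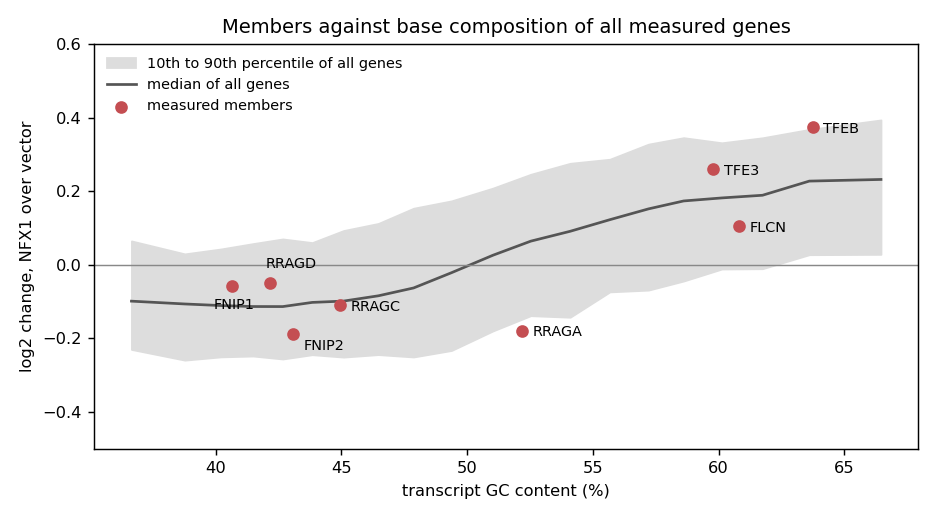
Change of the 8 measured members (points) against the GC content of their transcripts in percent, with the median (line) and the 10th to 90th percentile (band) of all measured genes in 20 bins of GC content. TFEB, TFE3 and FLCN sit at the high end, where the line is above 0, and RRAGA lies under the band.

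Genes around the Rag GTPases were read from lists of the same pathway, each set beside the median of 0.01 over all measured genes. Of all measured genes, 6.12% were past the limit on the higher side and 2.3% on the lower. Beside those shares, the few genes past the limit in any list below are no result about that list. The Ragulator complex anchors the Rags to the lysosome. Its 5 subunits, RRAGB and 2 associated genes were all measured, with a median change of 0.11, 5 higher and 3 lower, 1 of them (LAMTOR4) past the limit. The trend-adjusted median was 0.03, with 4 higher and 4 lower. LAMTOR4 had 174 FPKM in the NFX1 library and 129 FPKM in the vector library, a change of 0.43, or 0.19 when trend-adjusted. LAMTOR1, the lipid-anchored subunit, had 219 and 178 FPKM (0.30, trend-adjusted 0.08), and C17orf59 had 35.8 and 28.8 FPKM.

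GATOR1 switches RagA and RagB off when amino acids are scarce, GATOR2 opposes it and KICSTOR holds it at the lysosome. The 12 genes had a median change of 0.13, with 10 higher and 2 lower and 0 past the limit. The trend-adjusted median was 0.01, with 7 higher and 5 lower. NPRL3 had 34.8 FPKM in the NFX1 library and 29.3 FPKM in the vector library, and NPRL2 13.99 and 12.1 FPKM; both encode GATOR1 subunits. The KICSTOR genes ITFG2 and C12orf66 had 6.90 and 5.91 FPKM, and 2.13 and 1.67 FPKM. The change of C12orf66 was 0.23, or 0.34 when trend-adjusted, which is past the limit, as were 1.88% of all genes on the higher side.

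Of 7 amino acid sensors, 6 were measured, with a median change of 0.09, 4 higher and 2 lower. Trend-adjusted, the median was 0.05, with 3 higher and 2 lower, and C7orf60 left out for want of a GC content. SESN2, a leucine sensor induced by stress, had 35.0 FPKM in the NFX1 library and 29.3 FPKM in the vector library, a change of 0.25 (trend-adjusted 0.09). GATSL3 (CASTOR1, an arginine sensor) had 5.27 and 4.34 FPKM, and GATSL2 13.1 and 11.8 FPKM. LARS, leucyl-tRNA synthetase, had 9.53 and 11.2 FPKM, a change of -0.21 (trend-adjusted -0.08).

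The kinase complex that the Rags recruit showed changes in both directions. Over 9 genes of mTORC1 and the TSC-Rheb switch the median was 0.09, with 5 higher and 4 lower, and 1 past the limit on each side. Trend-adjusted, the median turned to -0.04, with 3 higher and 6 lower. MTOR, the kinase, had 10.9 FPKM in the NFX1 library and 13.0 FPKM in the vector library, which gives a change of -0.24 (trend-adjusted -0.22). MLST8, a subunit that stabilises it, had 81.0 and 59.5 FPKM, which gives 0.44 (trend-adjusted 0.19). DEPTOR, an inhibitor of MTOR, had 1.40 and 2.02 FPKM, which gives -0.33 (trend-adjusted -0.31), and AKT1S1, another inhibitor, had 109 and 91.7 FPKM (0.24, trend-adjusted -0.01). Of the 4 listed mTORC1 substrates in translation, RPS6KB2 had 76.3 and 55.7 FPKM, past the limit at 0.45 (trend-adjusted 0.21). EIF4EBP1 had 530 and 450 FPKM, RPS6KB1 1.86 and 2.05 FPKM and EIF4EBP2 18.9 and 19.2 FPKM. The median of the 4 was 0.11, with 2 higher and 2 lower. Their trend-adjusted median was 0.07, with 3 higher and 1 lower.

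Genes that hold, release, export or phosphorylate the factors had mostly lower values in NFX1 cells, as did most measured genes of like GC content. The list of 14-3-3 proteins, calcineurin subunits, the export receptor and kinases also holds STUB1, which is in none of these classes. The 18 genes had a median change of -0.13, with 13 lower and 5 higher, and a median GC content of 44.4%. In the GC quintile that holds this median, 21.7% of all genes were higher in the NFX1 library. A count of 13 lower among 18 is therefore no result about the list. Trend-adjusted, 12 were lower and the median was -0.05. XPO1, the nuclear export receptor, had 18.5 FPKM in the NFX1 library and 22.2 FPKM in the vector library, a change of -0.25. MAPK3 (ERK1), past the limit at 0.36, had 64.8 and 50.5 FPKM, SFN (14-3-3 sigma) 99.7 and 82.1 FPKM, and GSK3A 97.2 and 82.4 FPKM. These 3 had GC contents of 61.4% to 62.8%.

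AMPK phosphorylates FNIP1, and the list of AMPK and folliculin partners had a median change of -0.01 over 11 measured genes of 12, with 5 higher and 6 lower and 0 past the limit. The trend-adjusted median was -0.06, with 4 higher and 7 lower. PRKAG1 shares a row with another gene and was not analysed here. PRKAG2 had 10.8 FPKM in the NFX1 library and 13.3 FPKM in the vector library, and PRKAB2 3.82 and 4.81 FPKM; both encode AMPK subunits. GABARAP, a lipid-conjugated autophagy protein that sequesters the folliculin complex, had 766 and 649 FPKM, and the phosphatase PPP5C 58.0 and 48.9 FPKM.

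Reported lysosomal and autophagy targets of MiT/TFE factors were higher for the most part as deposited, and were split about evenly once the trend was removed. Of 35 genes 32 were measured, with a median change of 0.14, 24 higher and 8 lower. Of the 32, 2 were past the limit, both higher, against 6.12% of all measured genes, so this count is no result about the list. The trend-adjusted median was -0.0030, with 15 higher and 17 lower. ATP6V0D1, a subunit of the proton pump, had 159 FPKM in the NFX1 library and 125 FPKM in the vector library, or 0.35 (trend-adjusted 0.15). The hydrolase NAGLU had 36.8 FPKM in the NFX1 library and 28.7 FPKM in the vector library (0.34, trend-adjusted 0.14). The protease CTSF had 46.6 and 37.3 FPKM (0.31, trend-adjusted 0.12). TMEM55B, which encodes a lysosomal membrane protein, had 33.1 and 26.6 FPKM (0.30, trend-adjusted 0.15). GPNMB, among the most responsive MiT/TFE targets in other cells, had 0.0194 FPKM in the NFX1 library and 0.0222 FPKM in the vector library.

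Reported metabolic targets had a median change of -0.17 over 5 measured genes of 8, with 4 lower and 1 higher. PPARA, a regulator of fatty acid oxidation, had 2.44 FPKM in the NFX1 library and 3.19 FPKM in the vector library, HK2 2.41 and 2.83 FPKM and TFAM 6.08 and 6.76 FPKM. HIF1A, also in this list, had a change of -0.20. All 5 were lower when trend-adjusted, with a median of -0.12.

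MITF targets of melanocytes and osteoclasts were mostly under 1 FPKM. Of 13 genes, 10 stayed under 1 FPKM in both libraries, and TYRP1 and TRPM1 were listed at 0 in both. PMEL, a melanosome protein, had 2.16 FPKM in the NFX1 library and 1.53 FPKM in the vector library, a change of 0.32 that is not past the limit. CDK2 had 31.0 and 29.5 FPKM and MET 1.74 and 2.07 FPKM, and both are expressed in many cell types.

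**Figure D4:**
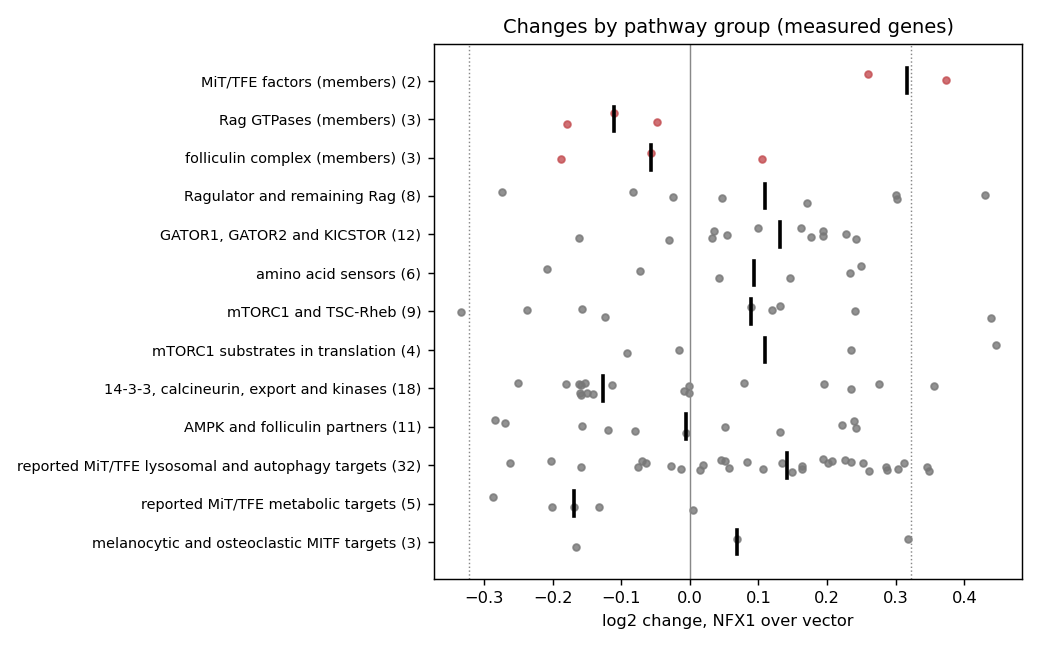
Change of each measured gene, NFX1 over vector, by pathway group, with the number of measured genes in brackets; black bars are medians, red points the members, dotted lines the limit of 0.32. The 2 measured MiT/TFE factors lie at 0.26 and 0.37, with the highest of the group medians. The list of 14-3-3, calcineurin, export and kinases, which also holds STUB1, has a median of -0.13 over 18 genes.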

How the data were processed

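RNA from 2 cultures of PLC/PRF/5 cells was sequenced, 1 library per group, grouped by the genotype labels. TopHat2 2.1.0, Cufflinks 2.2.1 and the hg19 build are named in the submitters' processing notes. Settings, annotation, strand and the scaling between libraries are not given in the sources used here. Per the file headers the authors deposited FPKM by library. Their log2 fold change, p-value, q-value and test score for every row are also there, per the file headers. FPKM rests on an assumed transcript length.

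The table has 28658 rows. Those that list no symbol (1651) or more than 1 (492) were left out, and the highest row was taken for a repeated symbol. The change is log2((NFX1 FPKM + 1)/(vector FPKM + 1)). It was taken for 11182 genes that reached 1 FPKM in either library, with a limit of 0.32 to describe its size and no p-value. The deposited table holds no counts, so depth was estimated from the smallest FPKM steps of olfactory receptor loci of 850 to 1100 bp. Of 363 such loci, 7 in the NFX1 library and 6 in the vector library held 1 fragment and gave the estimate. As the scaling between libraries is not given, the estimate may differ from the sequenced depth. Of 4056 low rows, 49.4% had a ratio within 0.02 (log2) of a ratio of small whole fragments, against 13.9% when the steps were shifted. Fragments were then estimated with the median length of GENCODE 29 transcripts paired with RefSeq. The resulting 95% Clopper-Pearson intervals cover counting error only. For 98.2% of the measured genes a spline trend of the change on GC content, transcript length and level was subtracted, fitted to genes that differed by less than 2-fold. The trend removal and the intervals were tested on simulated libraries. These were made with the same depth estimate and transcript lengths, so neither of those was tested. Promoter sequences are from RefSeq (GRCh38.p14).

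The members, gene lists and limits were chosen with earlier results of these data known. All 10 members were named, in pathway lists the genes with the largest changes, up to 4 each, and of marker lists some defining markers. Genes named beyond that were chosen after their values were seen. Alternatives covered the pseudocount, the filter, 2 scalings, the trend, repeated rows, row status and the limit. The work used Python 3.11.15 with scipy 1.17.1, numpy 2.4.6, matplotlib 3.10.9 and pandas 2.3.3.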

Additional observations from a re-analysis of the deposited data

How the results depend on the processing

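Of the recomputed changes and medians, 155 moved by less than the half-width of the counting interval (for a list, the median over its genes) and 12 by more. The 155 include values that could hardly move, since summing repeated rows and keeping rows with status OK left each one unchanged. They also include changes of sign, as for RRAGD (0.09) and FNIP1 (0.08) with the trend removed. The count of members past the limit, 1 as reported, was 0 with a pseudocount of 5, with a minimum of 5 FPKM (4 members left), with upper-quartile scaling, with the trend removed, and at limits of 1.5-fold and 2-fold. The change of TFEB ranged from 0.18 to 0.50 and stayed positive in the 8 alternatives that kept it. Removal of the trend took TFE3 to 0.10, RRAGA to -0.27 and FLCN to -0.086, and the medians of the mTORC1 list to -0.040, of the 14-3-3 list to -0.046 and of the lysosomal target list to -0.0030. Upper-quartile scaling gave -0.25 for RRAGA, 0.038 for the translation substrates, -0.20 for the 14-3-3 list and 0.070 for the lysosomal targets. That minimum gave medians of 0.24 for the Ragulator list and 0.23 for the translation substrates, over 6 and 3 genes. No paired analysis was possible because each group has 1 library. The cause of these shifts was not tested. Depth limits TFEB, FNIP1, FNIP2 and MITF most, since they have the fewest estimated fragments among the members above 0.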
